A study of Homo sapiens with 10 samples.

Results

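MBNL1 and IQGAP1 were each read by several probe sets on the same arrays, and in cells transduced with ITGB4 only some of those probe sets stood above untreated cells. The probe sets of MBNL1, MBNL2, MBNL3, IQGAP1 and IQGAP2 were taken as all those whose only gene symbol in the platform annotation was one of these 5 genes. There were 12 such probe sets among 22215 other than controls. MBNL1 had 4, MBNL2 and IQGAP1 3 each, and MBNL3 and IQGAP2 1 each. MBNL1 and IQGAP1 were chosen by the difference between ITGB4-transduced and untreated cells, which set 1 of their probe sets apart from the others, and the paralogs were added by name. Every value of that difference is therefore a description and carries no test.

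RNA came from MDA-MB-435, an established human melanoma line, and was hybridized to 10 Affymetrix hgu133a arrays. The groups were cells transduced with integrin beta 4 (ITGB4), cells after 1, 6 and 24 h with hepatocyte growth factor (HGF), and untreated cells, with 2 arrays each. The paper calls the arrays of a group biological duplicates. The descriptions of the transduced arrays also contain the word Mock, no mock-transduced group was measured, and a change made by transduction as such cannot be told apart from one made by ITGB4. The values are RMA values, which are normalized intensities on the log2 scale, so a difference of 1 is a doubling of signal. They ran from 2.19 to 14.28, with array medians of 6.81 to 6.88. Of the melanocyte markers 8 of 9 with a probe set were among the 10000 probe sets kept for testing (below), with a median value of 11.05, and of 8 epithelial markers 1 was kept, with a median of 5.0 over all 8. The 3 kept ITGB4 probe sets read at least 11.66, 12.96 and 10.29 on the transduced arrays, and at most 5.56, 6.86 and 5.28 on any other.

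Muscleblind-like proteins are zinc-finger RNA-binding proteins that control alternative splicing and the use of alternative polyadenylation sites. They are best known from myotonic dystrophy, in which transcripts with expanded CUG repeats trap them. MBNL1 and MBNL2 are made in most tissues, and MBNL3 mainly in placenta and in proliferating precursor cells. IQGAP proteins are large scaffolds that bind actin filaments, calmodulin, the GTPases CDC42 and RAC1 and kinases of the MAP kinase cascade. IQGAP1 is found in most cells at the leading edge and at cell contacts, whereas IQGAP2 is best known from liver. A probe set reads one stretch of a transcript, usually near its 3' end, so that probe sets of one gene can read different transcript ends or isoforms. Which stretch each probe set reads was not analysed here.

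The upstream sequence of MBNL1 and IQGAP1 is shown because these are the genes with a probe set apart from the others. All 5 genes had entries in the RefSeq promoter table (GRCh38.p14), with 13 starts in all, of which MBNL1 had 3 and IQGAP1 1. The 250 bases before the first listed MBNL1 start, on chr3:152268679-152268928 (plus strand), and before the IQGAP1 start, on chr15:90387992-90388241 (plus strand), read as follows, with capitals on the GC box GGGCGG (either strand, overlaps counted) and on CCAAT (either strand).
MBNL1: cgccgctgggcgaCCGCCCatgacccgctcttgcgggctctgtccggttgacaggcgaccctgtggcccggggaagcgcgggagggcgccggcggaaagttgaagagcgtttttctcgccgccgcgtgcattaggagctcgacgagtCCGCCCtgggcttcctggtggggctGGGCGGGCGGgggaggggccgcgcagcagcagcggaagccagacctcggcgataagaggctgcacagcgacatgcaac
IQGAP1: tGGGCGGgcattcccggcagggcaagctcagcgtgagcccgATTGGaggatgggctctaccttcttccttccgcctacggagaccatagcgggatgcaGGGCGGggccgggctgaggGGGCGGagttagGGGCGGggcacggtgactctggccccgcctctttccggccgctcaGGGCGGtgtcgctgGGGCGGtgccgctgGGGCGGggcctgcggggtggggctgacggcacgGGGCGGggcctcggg
The MBNL1 stretch held 4 GC boxes and no CCAAT, and the IQGAP1 stretch 8 GC boxes and 1 CCAAT. Of 35116 promoters of the same length, 42.6% held a GC box and 32.0% a CCAAT. GC content was 70.8% for MBNL1 and 74.4% for IQGAP1, against a median of 58.0% over all promoters. The 2 further MBNL1 starts had 44.0% and 55.2% GC and no GC box, so the 3 MBNL1 starts differ in base composition. Neither printed stretch held TATAAA, the AP-1 site TGACTCA, the cAMP response element TGACGTCA or the E-box CACGTG. AP-1 is among the factors that growth factor signals act on, and 4.2% of promoters held its site, among them the first listed start of MBNL2 with 2 matches.

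For testing, probe sets were ranked by their second-highest array, and the first 10000 were kept, the last of them at 7.35. Of the 12 probe sets, 9 were kept, 3 each of MBNL1, MBNL2 and IQGAP1. MBNL1 201151_s_at passed only through its 2 transduced arrays, so that the number kept is no evidence of level. Where the mean of a compared group is below 7.35, a difference is given as measured but its size is not exact. A probe set was called where limma gave an adjusted p under 0.05 over all 10000, with the spread taken from all arrays, and "rose" and "fell" are kept for such calls. Levels of different probe sets depend on their probes and are not compared with each other.

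In ITGB4-transduced cells 1 probe set of MBNL1 stood far above untreated cells and the others did not. Probe set 201151_s_at read 7.72 and 7.54 on the transduced arrays, against 6.28 and 6.45 on the untreated ones. Both transduced arrays lay above all 8 other arrays, of which the highest was 6.45. The difference between the means was 1.27 on the log2 scale (SE 0.122, n = 2 arrays per group), a 2.41-fold higher signal, whose size is not exact because the untreated mean of 6.36 was under 7.35. Only 3 of the 10000 kept probe sets, all of ITGB4 itself, had a larger increase. Probe set 201152_s_at read 10.47 and 10.15 in transduced cells, against 10.02 and 10.22 in untreated cells, and 201153_s_at read 9.63 and 9.07 against 9.12 and 9.21. In both the groups overlapped, and their differences of 0.19 (SE 0.183) and 0.18 (SE 0.166) were about as large as their standard errors. The fourth MBNL1 probe set, 215663_at, was not kept and stayed between 3.59 and 3.92 on all 10 arrays.

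IQGAP1 showed the same split. Probe set 213446_s_at read 9.78 and 9.60 in transduced cells, against 8.79 and 8.55 in untreated cells, a difference of 1.02 (SE 0.128), or 2.02-fold. The transduced arrays lay above all 8 others, and 4 kept probe sets had a larger increase. Probe set 200791_s_at read 10.34 and 10.01 in transduced cells, against 10.29 and 10.38 in untreated cells, a difference of -0.16 (SE 0.146) with overlapping arrays. Probe set 210840_s_at read 10.11 and 9.76 against 9.63 and 9.72, a difference of 0.26 (SE 0.156). Its transduced arrays also lay above the untreated ones, but the lower of them, 9.76, was close to the highest other array, at 9.73.

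MBNL2, added as a paralog, divided in a like way. Probe set 205018_s_at read 8.27 and 7.91 in transduced cells, against 7.38 and 7.10 in untreated cells, a difference of 0.85 (SE 0.182), and 11 kept probe sets had a larger increase. Probe set 205017_s_at read 7.89 and 7.87 against 7.48 and 7.00, a difference of 0.64 (SE 0.148), and 36 had a larger one. On both, the transduced arrays lay above all 8 others, and the untreated means, 7.24 for each, were under 7.35. The third, 203640_at, read 9.33 and 8.45 in transduced cells against 9.09 and 8.79 in untreated cells, with a difference of -0.05 (SE 0.259), so its replicates differed more than its groups. MBNL3 and IQGAP2 were not kept. MBNL3 read 5.09 and 5.24 in transduced cells against 5.18 and 5.04 in untreated cells, and IQGAP2 read 4.68 and 4.83 against 4.85 and 4.74, with overlapping arrays in both.

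**Figure D1:**
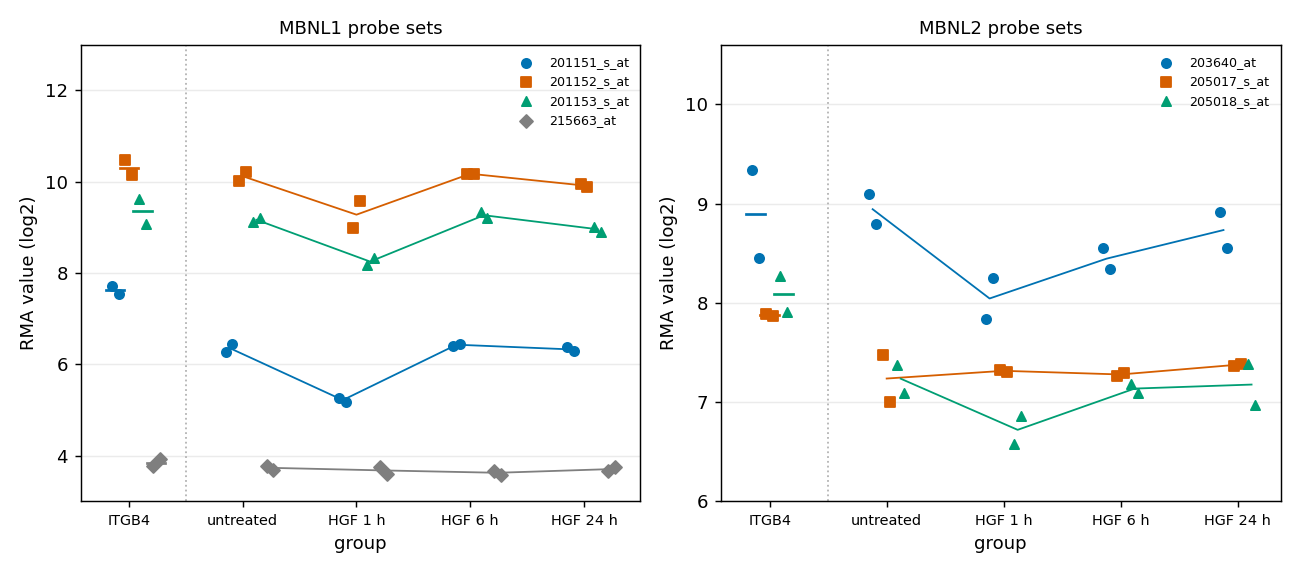
RMA values (log2, vertical axis) of the MBNL1 and MBNL2 probe sets on each of the 10 arrays, by group (horizontal axis). Points are arrays, and lines and short bars join or mark group means of 2 arrays. The MBNL1 probe set 201151_s_at reached 7.72 and 7.54 in ITGB4-transduced cells and 6.45 at most elsewhere, and the 3 kept MBNL1 probe sets were lowest at 1 h with HGF.

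**Figure D2:**
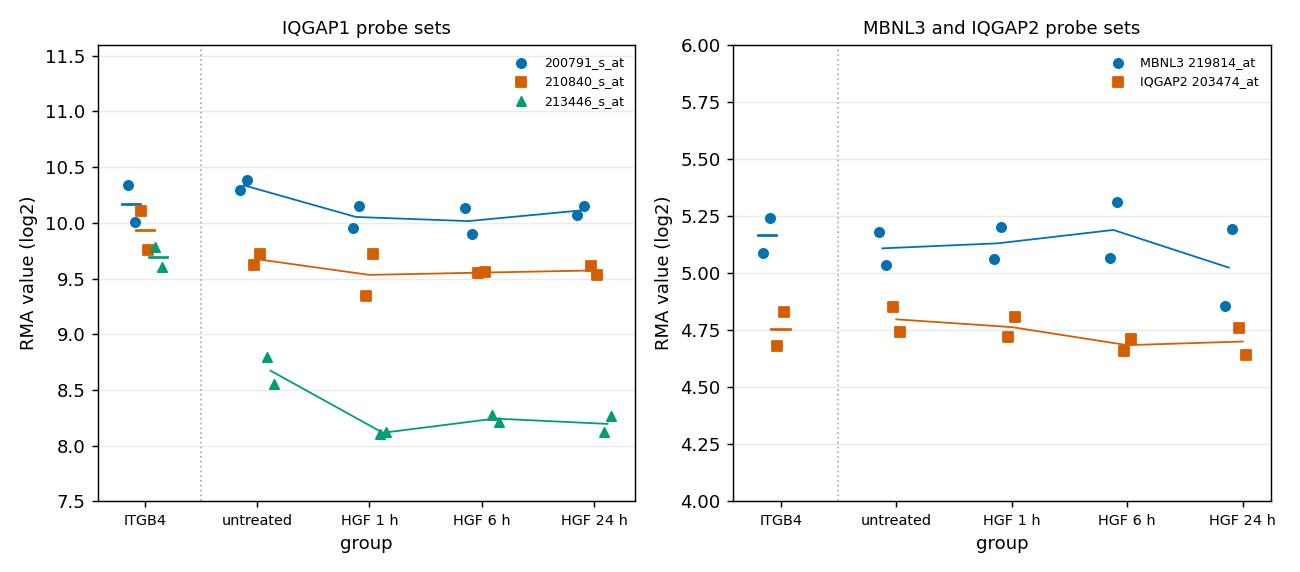
RMA values (log2, vertical axis) of the IQGAP1 probe sets, and of MBNL3 and IQGAP2, on each of the 10 arrays, by group (horizontal axis). Points are arrays, and lines and short bars join or mark group means of 2 arrays. IQGAP1 213446_s_at read 9.78 and 9.60 in ITGB4-transduced cells and at most 8.79 elsewhere, while MBNL3 and IQGAP2 were at most 5.31.

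Over the 9 kept probe sets the median difference between transduced and untreated cells was 0.26, against 0.00 over all kept probe sets. An absolute difference over 1 was found for 2 of the 9, against 0.08% of all 10000, and both transduced arrays lay above both untreated arrays for 5 of the 9, against 17.1%. The same 5 of the 9 lay above all 8 other arrays, against 5.97%. These shares stand beside a choice made on this very difference and are read no further. Against the HGF groups the separation varied with the time and was not confined to the same probe sets. At 1, 6 and 24 h the transduced mean was above the HGF mean by 2.41, 1.20 and 1.30 for 201151_s_at, by 1.57, 1.45 and 1.49 for 213446_s_at, and by 1.37, 0.95 and 0.91 for 205018_s_at. MBNL1 201152_s_at and 201153_s_at also lay above 1 h, by 1.03 and 1.1, and above 24 h, by 0.39 each, without overlap. MBNL2 203640_at lay above 1 h by 0.85 without overlap. The transduced arrays of each of these overlapped those at 6 h.

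**Figure D3:**
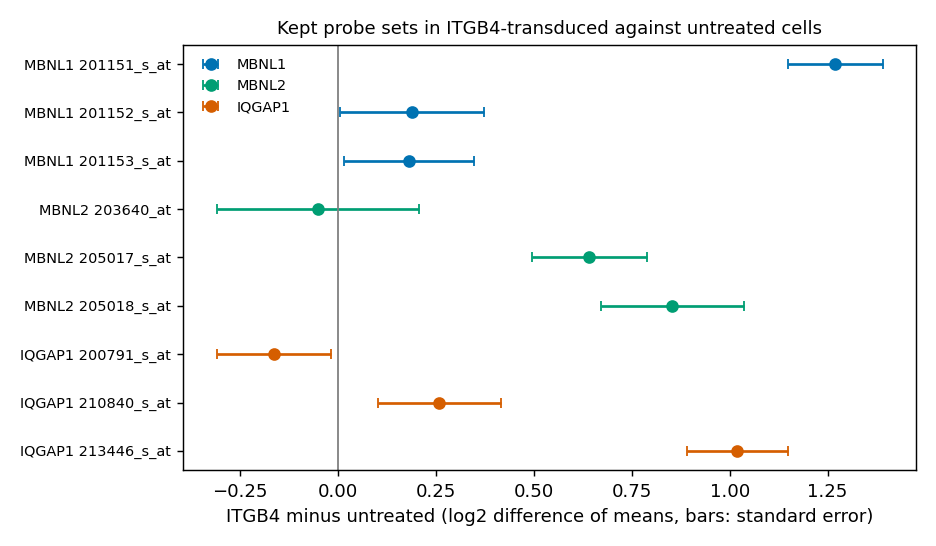
Difference between ITGB4-transduced and untreated cells (horizontal axis, log2, bars show the standard error from limma with n = 2 arrays per group) for the 9 kept probe sets. The differences of 1.27 (MBNL1), 1.02 (IQGAP1), 0.85 and 0.64 (MBNL2) lie apart from the other 5, which run from -0.16 to 0.26.

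To describe how far a probe set parted from the others of its gene, the mean of the gene's other kept probe sets was subtracted on each array. This could be done for 4544 probe sets of 1897 genes. The deviation of MBNL1 201151_s_at was -2.32 and -2.07 in transduced cells, against -3.29 and -3.27 in untreated cells. This difference of 1.08 was the largest in size of all 4544, of which 3 (0.066%) were over 1. Its size is not exact, because the untreated mean of 201151_s_at was under 7.35. The others over 1 were SRSF6 probe sets, at 1.04 and -1.04, which mirror each other. The deviation of IQGAP1 213446_s_at was -0.44 and -0.28 in transduced cells, against -1.17 and -1.5 in untreated cells, a difference of 0.97, and 5 of the 4544 were larger in size. Both ranks stand beside a choice of genes made on this difference and are read no further. In MBNL2 the deviation of 203640_at was 1.25 and 0.56 in transduced cells against 1.67 and 1.75 in untreated cells, a difference of -0.80, and that of 205018_s_at differed by 0.56. The gap between the probe sets of MBNL1 and of IQGAP1 was thus narrower on the transduced arrays than on any other, and in no HGF group was the 201151_s_at deviation above -3.11.

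The signal of the 3' ends of 2 control transcripts relative to their 5' ends, a mark of RNA integrity, also differed on these arrays. For ACTB the 3' minus 5' value was -0.45 and -0.57 in transduced cells, against -0.30 and -0.34 in untreated cells and -0.42 to -0.09 over the HGF arrays. For GAPDH it was -0.16 and -0.19 in transduced cells, against -0.01 and -0.01 in untreated cells and -0.21 to -0.01 over the HGF arrays. Both transduced arrays lay below both untreated arrays in each transcript, and for ACTB also below all 6 HGF arrays. The part of this in the differences between probe sets was not tested.

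**Figure D4:**
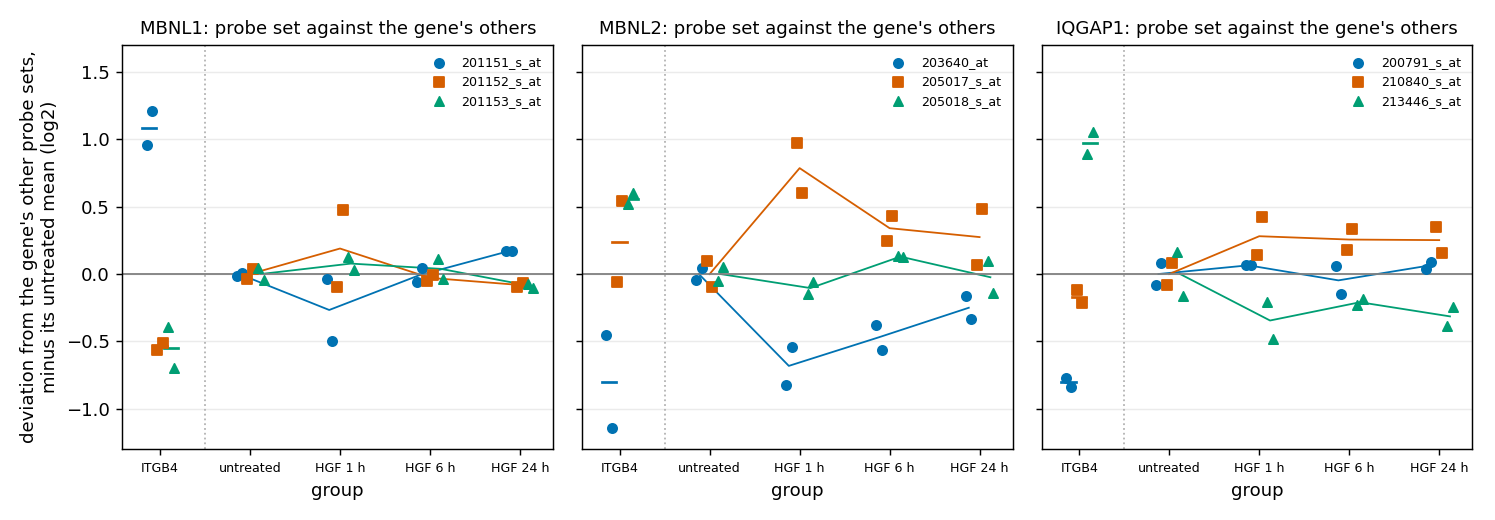
Within-gene deviation of each kept probe set, minus its mean in untreated cells (vertical axis, log2), by group (horizontal axis), for MBNL1, MBNL2 and IQGAP1. The deviation is taken from the mean of the gene's other kept probe sets on the same array. Points are arrays. On this scale the mean of the ITGB4-transduced arrays lies at 1.08 for MBNL1 201151_s_at and at 0.97 for IQGAP1 213446_s_at.

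After 1 h with HGF, MBNL1 fell on all of its 3 kept probe sets. HGF is the ligand of the receptor tyrosine kinase MET, and the comparison with untreated cells shares the untreated arrays with the ITGB4 difference that chose the genes. Probe set 201151_s_at read 5.27 and 5.17 at 1 h against 6.28 and 6.45 in untreated cells, and fell by 1.15 (SE 0.122, adjusted p = 0.00813 from limma). Both group means were under 7.35, so the size is not exact. Probe set 201152_s_at read 8.99 and 9.57 at 1 h against 10.02 and 10.22, and fell by 0.84 (SE 0.183, adjusted p = 0.0299 from limma). Probe set 201153_s_at read 8.18 and 8.32 at 1 h against 9.12 and 9.21, and fell by 0.92 (SE 0.166, adjusted p = 0.0218 from limma). On each of the 3, both arrays at 1 h lay below all 8 other arrays, which was so for 5 of the 9 kept probe sets and for 8.35% of all. In signal, untreated cells were 2.21, 1.79 and 1.89-fold higher on the 3 probe sets.

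IQGAP1 fell at 1 h on 1 of its 3 kept probe sets, and MBNL2 was not called. IQGAP1 213446_s_at read 8.11 and 8.12 at 1 h against 8.79 and 8.55 in untreated cells, and fell by 0.56 (SE 0.128, adjusted p = 0.0342 from limma). IQGAP1 200791_s_at and 210840_s_at differed by -0.29 and -0.14. MBNL2 203640_at read 7.84 and 8.25 at 1 h against 9.09 and 8.79, a difference of -0.90 (SE 0.259) with an adjusted p of 0.0673 from limma. Its arrays at 1 h lay below all 8 others too, but its standard error was larger than those of MBNL1. MBNL2 205018_s_at read 6.58 and 6.86 at 1 h against 7.38 and 7.10, a difference of -0.52 (SE 0.182, adjusted p = 0.11 from limma), and 205017_s_at differed by 0.08. Of the 9 kept probe sets, 4 were called lower and 0 higher, against 5.11% and 0.62% of all 10000. The median difference was -0.56 over the 9 and 0.06 over all kept probe sets. Of the 4 called, 3 read the same gene, MBNL1, and with the probe sets of each gene averaged 1 gene was called. MBNL1 201151_s_at was kept only through its transduced arrays. It and IQGAP1 213446_s_at were singled out by a difference from the same untreated arrays. The count and the median therefore describe the 9 and are no test of them as a set.

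The calls at 1 h rest on few arrays. With either untreated array or HGF 1 h replicate 1 left out, 0 of the 9 were called (adjusted p of 201151_s_at 0.0561, 0.111 and 0.0614 from limma), and without either 6 h array 2 were.

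Between 1 and 6 h with HGF, MBNL1 rose again on all 3 kept probe sets. The means compared here and for 24 against 1 h come from none of the arrays of the difference that chose the genes, but those arrays entered the estimate of spread, and MBNL1 201151_s_at was kept through the transduced arrays. Probe set 201151_s_at read 6.41 and 6.45 at 6 h against 5.27 and 5.17 at 1 h, and rose by 1.21 (SE 0.122, adjusted p = 0.00187 from limma). Probe set 201152_s_at read 10.17 and 10.18 at 6 h against 8.99 and 9.57 at 1 h, and rose by 0.90 (SE 0.183, adjusted p = 0.0106 from limma). Probe set 201153_s_at read 9.33 and 9.20 at 6 h against 8.18 and 8.32 at 1 h, and rose by 1.01 (SE 0.166, adjusted p = 0.00532 from limma). Every array at 6 h was above both at 1 h, and the size for 201151_s_at is not exact, as at 24 h, since its HGF means were under 7.35. MBNL2 and IQGAP1 were not called, with 0.40 (adjusted p = 0.291) for MBNL2 203640_at, 0.42 (adjusted p = 0.129) for 205018_s_at and 0.13 (adjusted p = 0.5) for IQGAP1 213446_s_at, each from limma. Of the 9 probe sets 3 were called higher, against 11.9% of all kept probe sets. All 3 read MBNL1, so this count stands for 1 gene. The calls of 201151_s_at and 201153_s_at held whichever array was left out, and that of 201152_s_at was lost without HGF 1 h replicate 1 or either 6 h array (adjusted p from limma 0.0636 to 0.0733).

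At 6 h the MBNL1 means were again close to those of untreated cells, with differences of 0.07, 0.05 and 0.10, and at 24 h they were -0.04, -0.20 and -0.21. The arrays of 201151_s_at read 6.37 and 6.28 at 24 h, within the range of the 6 h and untreated arrays. Against untreated cells, 0 of the 9 probe sets were called by limma at 6 h, when 6.29% of all were, and 1 of the 9 and 23.4% of all had an unadjusted p under 0.05. At 24 h 0 of the 9 and 0% of all 10000 were called, and 1 of the 9 and 11.2% of all had an unadjusted p under 0.05. IQGAP1 213446_s_at was that probe set at both times. It read 8.28 and 8.21 at 6 h and 8.12 and 8.27 at 24 h, below 8.79 and 8.55 in untreated cells on every array. Its differences were -0.43 (SE 0.128, adjusted p = 0.0698) and -0.48 (SE 0.128, adjusted p = 0.344), both from limma. The HGF means of 8.12, 8.24 and 8.20 at 1, 6 and 24 h were not called as different from each other.

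From 1 to 24 h, MBNL1 201151_s_at rose by 1.11 (SE 0.122, adjusted p = 0.0206 from limma), a comparison in which 0.01% of the 10000 kept probe sets were called. This probe set was kept only through its transduced arrays, and without a filter on low values its adjusted p was 0.0136 from limma. A larger increase was found for 9 other probe sets, and a larger difference in either direction for 14, which were not called. The other 2 MBNL1 probe sets differed by 0.64 (adjusted p = 0.162) and 0.71 (adjusted p = 0.122), and MBNL2 203640_at by 0.69 (adjusted p = 0.262), each from limma. The call of 201151_s_at was lost without any 1 untreated or HGF array (adjusted p from limma 0.0505 to 0.411), and it stayed without either ITGB4 array, when 201153_s_at was called as well (adjusted p = 0.0449). Between 24 and 6 h, 0 of the 9 were called by limma, against 19.7% of all, and 0 had an unadjusted p under 0.05, against 34.2% of all.

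**Figure D5:**
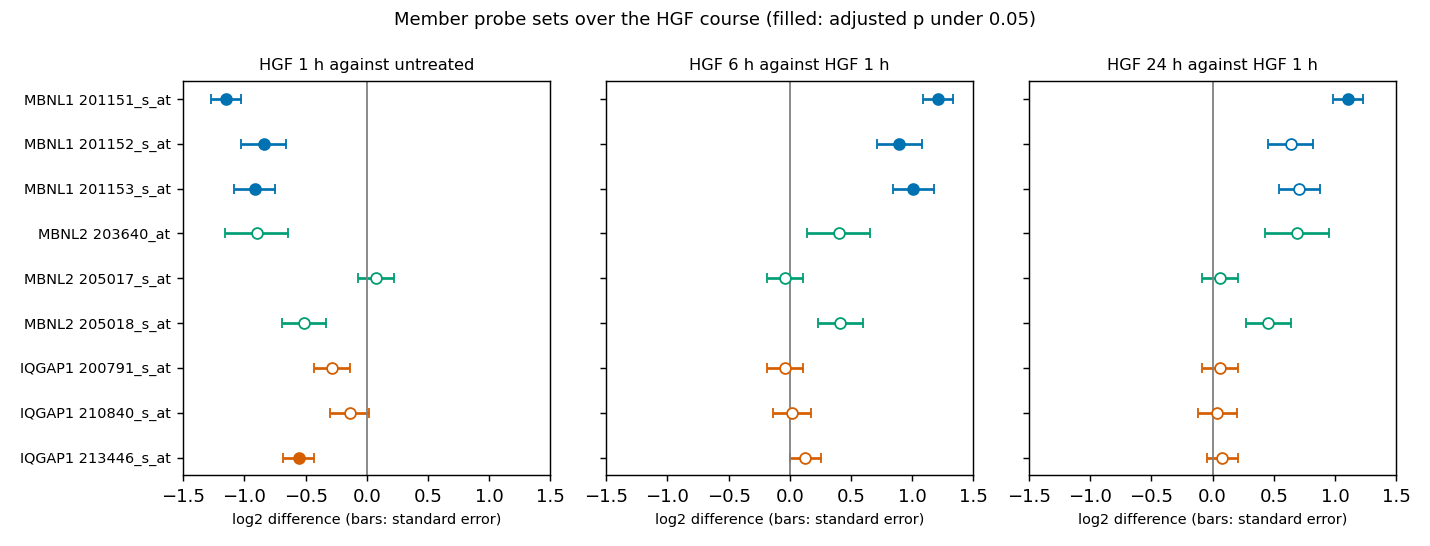
Log2 differences (horizontal axis) of the 9 kept probe sets (vertical axis), with the standard error from limma as bars (n = 2 arrays per group). The panels show 1 h with HGF against untreated cells, 6 h against 1 h, and 24 h against 1 h. Filled points were called by limma. The 3 MBNL1 probe sets lie between -1.15 and -0.84 at 1 h against untreated cells, and between 0.90 and 1.21 at 6 h against 1 h. IQGAP1 213446_s_at lies at -0.56, 0.13 and 0.08 in the 3 panels.

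Ordered by their means over the 5 groups, the 3 kept MBNL1 probe sets had the same order, although neighbouring groups often overlapped. Probe set 201151_s_at had means of 7.63 in transduced cells, 6.43 at 6 h, 6.36 in untreated cells, 6.33 at 24 h and 5.22 at 1 h, and the 3 middle groups did not differ beyond the spread of their arrays. For 201152_s_at the arrays of transduced cells, of 6 h and of untreated cells overlapped, those of 24 h lay just below, and the 1 h mean of 9.28 was the lowest. IQGAP1 213446_s_at had its mean of 9.69 in transduced cells, then 8.67 in untreated cells, and the HGF times below. For IQGAP1 200791_s_at the arrays of neighbouring groups overlapped from 10.34 in untreated cells down to 10.02 at 6 h. For 210840_s_at the means ran from 9.93 in transduced cells, through 9.67 in untreated cells, to between 9.53 and 9.57 at the 3 HGF times, which overlapped. Thus, the 3 MBNL1 probe sets were called in the same direction at 1 h and between 1 and 6 h. Among these 3, only on 201151_s_at did both transduced arrays lie above all others.

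The HGF comparisons of the within-gene deviations called none of the 9 probe sets. At 1 h against untreated cells 0 of 9 were called by limma, and 0% of 4544, while 3 of 9 and 9.95% of all had an unadjusted p under 0.05. The largest was that of MBNL2 205017_s_at, which differed by 0.79 (adjusted p = 0.243 from limma), and for MBNL2 203640_at the difference was -0.68 (adjusted p = 0.275 from limma). At 6 and 24 h against untreated cells 0 of 9 were called by limma, against 0.176% and 0% of all, and 1 of 9 had an unadjusted p under 0.05 at each time, against 8.82% and 5.83% of all. For 6 against 1 h, 24 against 6 h and 24 against 1 h, 0 of 9 were called by limma, against 0.462%, 1.12% and 0.044% of all, and 0, 0 and 3 of 9 had an unadjusted p under 0.05, against 13.9%, 13.2% and 5.55% of all. The unkept MBNL1, MBNL3 and IQGAP2 probe sets, fitted without a filter, had differences of -0.17 to 0.08 in the 6 HGF comparisons and were not called by limma.

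Other regulators of tissue-specific splicing gave a list of 23 genes, of which 19 had a probe set and 13 were kept. Against untreated cells, 0 were higher and 1 lower at 1 h, against 0.62% and 5.11% of all kept probe sets, and 1 was higher and 1 lower at 6 h, against 3.94% and 2.35%. At 24 h 0 were called by limma, against 0% of all, and 2 of the 13 had an unadjusted p under 0.05, against 11.2% of all. At 1 h QKI, an RNA-binding protein of the STAR family, fell by 0.75 (SE 0.159, adjusted p = 0.0283 from limma), and the list's median was -0.15. QKI was called there on 2 of its 4 kept probe sets. At 6 h RBM38, an RNA-binding protein and p53 target, rose by 0.91 (adjusted p = 0.00447 from limma), and RBFOX2, a splicing regulator of epithelial and muscle exons, fell by 0.57 (adjusted p = 0.0412 from limma). RBFOX2 was called there on 1 of its 3 kept probe sets. Between 1 and 6 h 5 of the 13 rose and 0 fell, with a median of 0.43, against 11.9% higher among all kept probe sets. ESRP1, a splicing regulator of epithelial cells, rose by 0.76, RBM38 and KHDRBS3 by 0.68 each, and PTBP1, a repressor of neuronal exons, by 0.62. Between 6 and 24 h 4 fell and 0 rose, against 12.6% and 7.03% of all, namely RBM38 by 0.81, ESRP1 by 0.62, KHDRBS3 by 0.57 and PTBP1 by 0.55. At 24 h against untreated cells, ESRP1 and CELF2 had the largest differences of the list, -0.40 and -0.36. From 1 to 24 h 0 were called by limma, against 0.01% of all, and 2 had an unadjusted p under 0.05, against 14.8% of all. The largest differences were 0.58 for QKI and -0.41 for ELAVL1. With a call on any kept probe set of a gene counted, 2 genes were called at 1 h and 2 at 6 h against untreated cells. There were 6 such genes between 1 and 6 h and 5 between 6 and 24 h. In transduced cells the list's median difference was 0.03.

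Known binding partners of IQGAP1 gave a list of 29 genes, of which 23 had a probe set and 18 were kept. At 1 h and at 24 h against untreated cells 0 were called by limma, against 5.73% and 0% of all kept probe sets. At each time 3 of the 18 had an unadjusted p under 0.05, against 26.7% and 11.2% of all. The largest differences were -0.43 for the cadherin CDH2 and -0.34 for the microtubule-binding CLASP2 at 1 h, and -0.51 for the calcium sensor S100B and -0.38 for CLASP2 at 24 h. At 6 h TSG101, a part of the endosomal sorting machinery, fell by 0.53 (adjusted p = 0.043 from limma). It was the 1 call on the probe sets read, against 6.29% of all, and CLASP2 was called on its other kept probe set. Between 1 and 6 h the GTPases CDC42 and ARF6 rose by 0.60 and 0.43 and TSG101 fell by 0.46, or 3 of 18 called, against 18.4% of all. CDC42 and ARF6 were each called on 1 of 2 kept probe sets. Between 6 and 24 h CTNNA1, which links cadherins to actin, rose by 0.47 and TSG101 by 0.58, and CDC42 and ARF6 fell by 0.49 and 0.45, or 4 of 18 called, against 19.7% of all. From 1 to 24 h 0 were called by limma, against 0.01% of all, and 1 had an unadjusted p under 0.05, against 14.8% of all. The largest differences were -0.45 for S100B and 0.33 for CDH2. With a call on any kept probe set of a gene counted, 2 genes were called at 6 h against untreated cells, 3 between 1 and 6 h and 5 between 6 and 24 h. In transduced cells the list's median difference was 0.07.

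As a description over the 10 arrays, which share their groups, MBNL1 201151_s_at varied most like ATG12, an autophagy conjugation protein (Pearson r = 0.979), NCKAP1, a subunit of the WAVE complex (0.978), IGF2BP2, an mRNA-binding protein (0.973), BTBD3 (0.967) and SEC23A, a coat protein of vesicles (0.966). The MBNL1 probe set 201152_s_at varied most like CHD1 (r = 0.987), MAN2A1 (0.986), USP1 and TBK1 (0.983 each) and SMC2 (0.982), so the 2 MBNL1 probe sets had no neighbour in common. IQGAP1 213446_s_at varied most like ELOVL2 (r = 0.978), SPAG9, a scaffold of JNK signalling (0.974), PICALM (0.963), ASAP1 (0.953) and ABHD17B (0.951), and 200791_s_at most like PPM1B (r = 0.94) and AFF1 (0.923). MBNL2 203640_at varied most like EPRS1 (r = 0.978), SEC63 (0.974) and RSL24D1 (0.971). Across genes, MBNL1 201151_s_at and MBNL2 205018_s_at had r = 0.92, and MBNL2 205018_s_at and IQGAP1 213446_s_at r = 0.903, all 3 being high in transduced cells. Within genes, MBNL1 201152_s_at and 201153_s_at had r = 0.954 and MBNL1 201151_s_at and 201152_s_at 0.824, but IQGAP1 200791_s_at and 213446_s_at only 0.364.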

How the data were processed

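The deposited values are log2 values that the authors summarized by RMA from Affymetrix hgu133a arrays. The submitters' processing notes name RMA and the affy package, with no version given in the sources used here. They were tested as deposited. The genes and lists were chosen with earlier results of these data known. Gene symbols came from the platform annotation (19065 probe sets with a single symbol, 1043 with several, 2107 with none, and 68 controls left out). The 10000 probe sets with the highest values on their second-highest array were kept, in place of the authors' presence calls, which were not used here.

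Group means were estimated from all 10 arrays at once in limma 3.58.1 (R 4.3.3), with 5 residual degrees of freedom and a prior of 5.89 degrees of freedom and SD 0.144, and p-values were adjusted by Benjamini and Hochberg within each comparison. Within-gene deviations were fitted in the same way over 4544 probe sets. The code was tested on simulated data. The number of arrays limits the precision.

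All probe sets of the 5 genes are named. Of each partner list at most 4 called genes each way are named (with no call, the 2 with the largest difference), by the kept probe set with the highest mean. For likeness the 5 probe sets of other genes with the highest correlation were taken. Alternatives were no filter, a stricter filter of 8000, median centring, cyclic loess, the mean of a gene's probe sets, a trended prior, the 2 compared groups alone, a replicate block and each array left out.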

Additional observations from a re-analysis of the deposited data

Results flagged for a closer look

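The 3 MBNL1 probe sets are listed because their differences from untreated cells at 1 and at 6 h with HGF were themselves different by the direct limma test between the times. For 6 over 1 h the differences were 1.21 for 201151_s_at, 0.90 for 201152_s_at and 1.01 for 201153_s_at, with the 6 h arrays above the 1 h arrays in each. For 24 over 1 h the difference of 201151_s_at was 1.11, with a call that was lost whenever an untreated or HGF array was left out.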

How the results depend on the processing

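The 2 arrays per group limit every result, and signal below 7.35 limits the size of the differences of MBNL1 201151_s_at and of 2 MBNL2 probe sets. For 1 h against untreated cells the 4 calls became 1 gene with the mean of the probe sets of each gene, and 0 to 5 with 1 array left out. For 6 h against untreated cells the 0 calls became 1 with median centring, 1 with cyclic loess and 2 with the 2 groups alone. For 24 against 1 h the 1 call became 0 with the stricter filter, 0 with a trended and robust prior, 0 genes with the mean of probe sets, and 0 to 2 with 1 array left out. The within-gene deviations for 6 against 1 h had 1 call in place of 0 without a filter. The ITGB4 difference of MBNL1 201151_s_at ran from 1.17 to 1.36 with 1 array left out, that of IQGAP1 213446_s_at from 0.898 to 1.14, and the IQGAP1 deviation from 0.803 to 1.14, and it was 1.18 against the highest IQGAP1 probe set. The stricter filter drops MBNL1 201151_s_at and gives no value for it. Among single probe sets with an unadjusted p under 0.05, no alternative reversed a difference, and of 133 alternatives to called results 102 kept the call and 31 lost it, 28 of them with 1 array left out. Of 153 alternatives to results not called, 9 gave a call, among them MBNL2 203640_at at 1 h. The causes were not tested.

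With the replicate number as a block, MBNL1 201151_s_at at 1 h had an adjusted p of 0.00812 from limma and MBNL2 203640_at one of 0.0442, which adds a call. The main tests did not use the replicate number. In their deviations from group means, 8 of 10 same-numbered pairs correlated over 0.1 (-0.138 to 0.463). The array titles give only a number, and whether same-numbered arrays were handled together was not tested.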
